A study of Mus musculus with 12 samples.

Results

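The 32 genes described here encode the glutamate receptors and their auxiliary subunits: 4 AMPA, 5 NMDA and 5 kainate receptor subunits, 1 delta receptor, 6 metabotropic receptors, 2 auxiliary subunits of kainate receptors and 9 of AMPA receptors. They were taken from a list of gene symbols, matched to the Ensembl identifiers of the count tables, and all 32 were found among 51912 listed genes. RNA was measured in 12 libraries of cerebral cortex dissected from mouse embryos at embryonic day 15.5, 1 library per embryo, in a study of how the chromatin remodelling subunit Arid1a shapes subplate neurons and cortical wiring. The mutant group held 6 embryos labelled as Emx1-Cre Arid1a conditional mutants, and the other 6 embryos are labelled as controls, with no alleles given for them. Emx1-Cre acts in dorsal telencephalic progenitors and the cells they give rise to, so interneurons that migrate into the cortex, blood vessels and microglia keep Arid1a. Litter 1 gave 2 mutants (both female) and 4 controls (1 female, control 1, and 3 males). Litter 2 gave 4 mutants (3 females and 1 male, mutant 4) and 2 controls (control 6, a female, and control 5, a male).

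Glutamate is the main excitatory transmitter of the cortex. AMPA and kainate receptors are ion channels that open quickly on binding glutamate, NMDA receptors are channels that also need glycine or serine and pass calcium, and metabotropic receptors act through G proteins. Auxiliary subunits such as the transmembrane AMPA receptor regulatory proteins (TARPs), cornichons and Neto proteins bind the channels, carry them to the surface and slow or reshape their currents, and in the embryonic cortex these receptors are made by migrating and newly settled neurons before most synapses have formed.

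Promoters are shown for 3 members on which the values below turn: Cnih3 and Cnih2, the cornichon pair of which 1 had the largest negative difference between the genotypes, and Gria2, the AMPA subunit with the narrowest spread between libraries. RefSeq sequences on GRCm38.p6, from 250 bases before to 50 bases after the annotated start, were found for 20 of the 32 members and are printed 5′ to 3′ on the gene's strand, with capitals marking a motif found by script.
Cnih3 (chr1:181352378-181352677, plus strand): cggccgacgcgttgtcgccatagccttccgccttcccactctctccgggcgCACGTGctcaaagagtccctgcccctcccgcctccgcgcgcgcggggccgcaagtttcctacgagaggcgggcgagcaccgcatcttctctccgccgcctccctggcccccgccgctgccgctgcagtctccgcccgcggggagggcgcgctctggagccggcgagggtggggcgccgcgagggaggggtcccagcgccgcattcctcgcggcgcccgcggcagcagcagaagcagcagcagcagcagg
Cnih2 (chr19:5098472-5098771, minus strand): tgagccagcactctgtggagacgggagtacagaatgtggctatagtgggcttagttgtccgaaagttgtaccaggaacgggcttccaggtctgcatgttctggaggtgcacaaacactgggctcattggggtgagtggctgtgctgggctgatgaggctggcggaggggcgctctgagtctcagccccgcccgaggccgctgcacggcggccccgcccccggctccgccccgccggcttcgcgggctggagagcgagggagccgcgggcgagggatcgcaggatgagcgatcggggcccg
Gria2 (chr3:80802786-80803085, minus strand): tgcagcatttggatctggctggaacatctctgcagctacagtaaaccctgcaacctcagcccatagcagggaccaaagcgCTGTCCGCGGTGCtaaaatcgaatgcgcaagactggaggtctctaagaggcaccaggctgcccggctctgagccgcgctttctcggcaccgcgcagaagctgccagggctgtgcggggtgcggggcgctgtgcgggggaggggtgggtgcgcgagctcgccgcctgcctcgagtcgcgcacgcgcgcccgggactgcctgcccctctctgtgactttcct
Both strands were searched for the core of RE1, the element bound by the repressor REST, as GCACC, 2 bases of any kind and GGACAG, and for the E-box CACGTG, bound by several basic helix-loop-helix factors. No member's promoter held both. The RE1 core was read on the opposite strand of Gria2, 170 to 158 bases upstream of the start, and 0.104% of 27025 genes with a promoter of this length held it. Cnih3 held an E-box 199 to 194 bases upstream, as did 8.09% of genes, and Grin1 was the other member with one. Cnih2 held neither set of letters in this window. The median GC content of the 20 promoters was 63.5%, against 52.7% over all genes, with 75.3% in Cnih3. The observed over expected number of CG pairs had a median of 0.689 in the members and 0.389 over all genes. These matches describe letters only, and binding was not measured.

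Counts on genes ran from 643197 to 3525121 per library, with 4 mutants (1, 4, 2 and 6) the shallowest at 1070000 or fewer and the controls at 1476478 to 2815042. Levels are given as CPM, counts relative to the library size after TMM scaling. The mean level of Arid1a was 447 ± 51.0 CPM over the 6 mutants and 510.0 ± 42.3 CPM over the 6 controls (± SD), for a log2 fold change of -0.30 that did not pass the test (edgeR quasi-likelihood adjusted p = 0.277). All 11 markers of cortical projection neurons were present, at a summed 3868 to 6654 CPM in mutants and 4804 to 7821 CPM in controls. Controls 2 and 3 had the largest summed CPM of 16 cortical interneuron markers, and control 5 held 179.9 CPM of 7 choroid plexus markers, against at most 17.1 CPM in any other library. Labels do not pair embryos, and p-values measure the spread between embryos. In such bulk tissue, fewer cells of a type and less RNA per cell cannot be told apart.

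Every member had at least 1 count, and 31 of 32 passed the filter on low counts. Grm2, a presynaptic group II metabotropic receptor, did not pass it: its 121 counts over 12 libraries gave 2.14 to 5.32 CPM in mutants and 3.76 to 10.8 CPM in controls. To compare genes, control levels were divided by the length of each gene's merged exons (CPM per kb). Gria1 led at 111 ± 17.1 CPM per kb, followed by Grik2 at 91.3 ± 23.0 and Gria2 at 73.3 ± 2.60 (mean ± SD, n = 6 controls). These genes encode the GluA1 and GluA2 subunits of AMPA receptors and the GluK2 subunit of kainate receptors, so 3 channel subunits of 2 families headed the order.

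Grik3, Gria4 and Grin2b followed at 59.5, 56.3 and 54.1 CPM per kb of exons. Grin2b encodes GluN2B, the glutamate-binding NMDA subunit that prevails before birth. The other NMDA subunits all lay at or below rank 26 of 32: Grin1 had 3.31 ± 0.735 CPM per kb, Grin3a 1.91 ± 1.128, Grin2a 1.74 ± 0.882 and Grin2d 0.822 ± 0.267, the lowest of the members. Grin1 encodes the subunit that every NMDA receptor contains, and its level per kb of exons was below that of Grin2b in each of the 6 controls, where Grin1 reached at most 4.12 and Grin2b had at least 38.7. Grin1 also shares 1307 bases of exon with its antisense gene Grin1os, and whether counting used strand is not given in the sources used here.

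Among the auxiliary subunits, Cacng4 had 47.4 ± 3.60 CPM per kb of exons, Neto2 43.0 ± 7.01, Cnih3 39.1 ± 16.4 and Cnih2 38.1 ± 9.55. Cacng4, a type I TARP, was the highest of the 6 TARP genes, above Cacng7 (30.8), Cacng8 (18.1), the stargazin gene Cacng2 (10.7), Cacng3 (8.65) and Cacng5 (2.16). Its 6 control libraries lay between 43.5 and 53.9 CPM per kb and did not overlap those of Cacng7, whose highest was 36.4. Of the metabotropic receptors Grm3 (37.3), Grm5 (35.1) and Grm7 (31.3) stood in the middle of the order, and Grm8 (4.0) and Grm4 (2.45) near its end. In all 31 pairs of neighbours in the order the ranges over the 6 controls overlapped, so the order of direct neighbours is not clear. Ranks further apart could separate, as did Gria1 (89.3 or more) and Gria2 (77.1 or less) at ranks 1 and 3.

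The order depends on which length is used, since the feature type that was counted is not given in the sources used here. Divided by the whole gene span with introns, Gria2 came first at 9.39 CPM per kb and Cnih2 second at 9.24, while Gria1 moved to rank 9 and Grik2 to rank 10. The largest move was 15 ranks. Grin2b kept a higher level than Grin1 per kb of span, at 2.92 against 1.15. Members were long genes, with a median span of 184 kb among those tested against 31.8 kb over all genes tested.

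**Figure D1:**
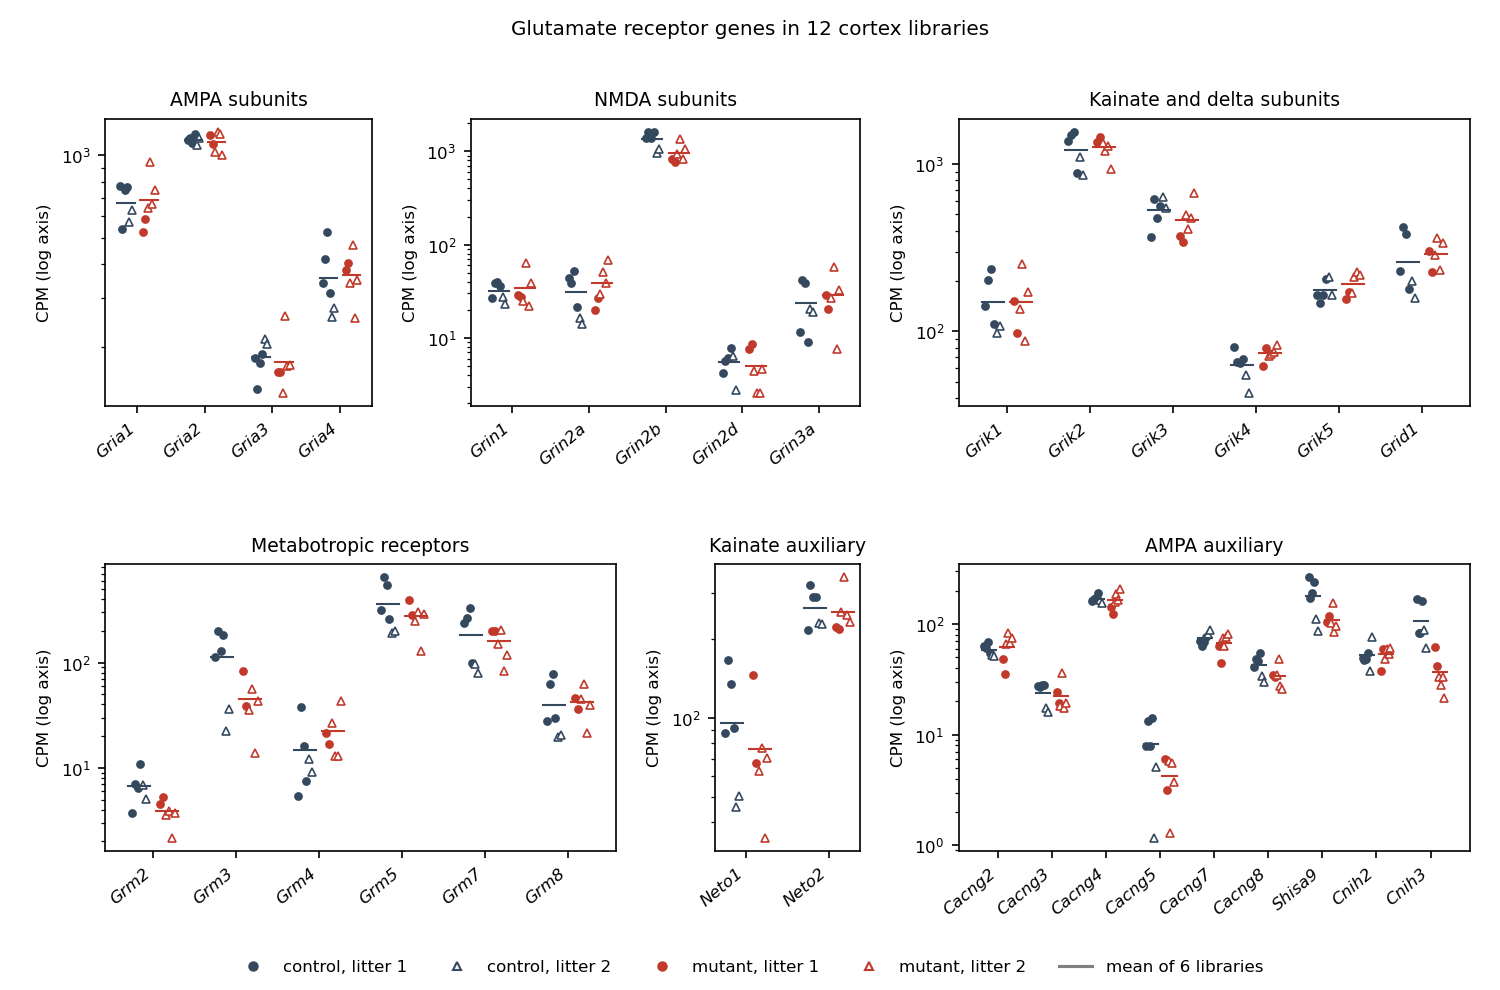
CPM of the 32 members in each of the 12 libraries, on log axes that differ between panels, with circles for litter 1, triangles for litter 2 and a line at the mean of the 6 libraries of a genotype. Points of mutants and controls overlap in each member, and Cnih3 has the widest gap between the means.

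Mutants were compared with controls to see whether loss of Arid1a in the dorsal lineage changes these genes. No member passed the test in either direction (0 of 31 at an edgeR quasi-likelihood adjusted p under 0.05, in a fit over 10678 genes that models genotype beside litter and sex), where 0.159% of all genes tested were called lower and 0.0562% higher. At an unadjusted p under 0.05 stood 5 of 31 members (Cnih3, Cacng7, Grik4, Grin1 and Gria4), against 8.78% of genes. The log2 fold changes were negative in 10 of 31 members and in 50.1% of genes, with a median of 0.15 in the members and -0.00 over all genes. In no member did all 6 mutants lie below all 6 controls (0.927% of genes) or above them (0.337% of genes). Each member's value below from this fit therefore describes a difference that did not pass, and log2 fold changes (mutant minus control, with standard errors, SE) can differ from the ratio of the means because of the litter and sex terms.

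**Figure D2:**
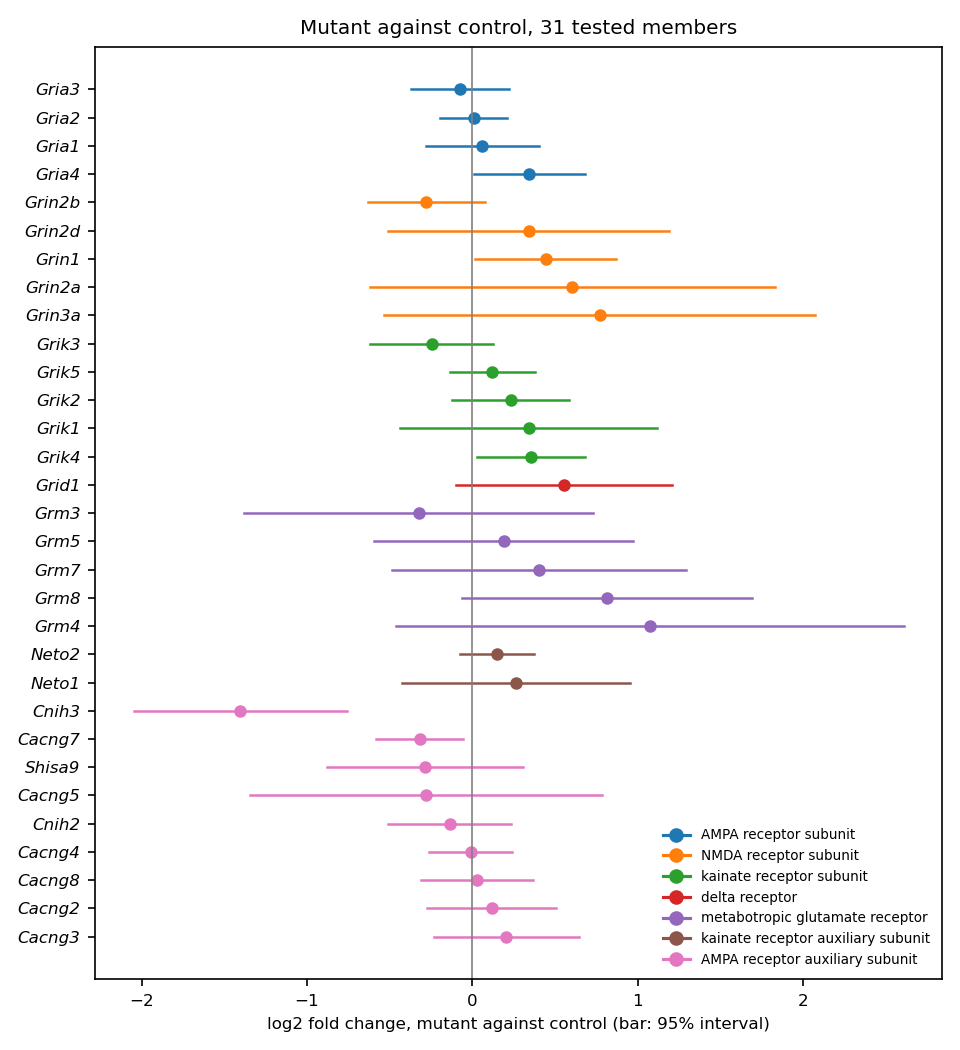
Log2 fold change of mutant against control for the 31 tested members, by family, with bars for the 95% interval of the edgeR quasi-likelihood fit. The interval of Cnih3 runs from -2.05 to -0.76, and those of Gria2 and Cacng4 are among the narrowest around 0.

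Cnih3 had the largest negative value of the members. It encodes a cornichon, a small membrane protein that escorts AMPA receptors out of the endoplasmic reticulum and slows their closing, and lies on the plus strand of chromosome 1 (GRCm38, 181352628 to 181460641). Mutants 1 to 6 had 62.3, 41.5, 33.0, 28.3, 33.4 and 21.4 CPM of Cnih3, and controls 1 to 6 had 168, 82.7, 83.6, 162, 89.1 and 61.2 CPM. Of the mutants, 5 lay below every control (a pattern held by 2.58% of genes and by no other member), and mutant 1 lay just above control 6. Cnih3 was also the 1 member in which the mutants lay below the controls within each of the 2 litters (1.91% of genes): mutants of litter 1 at 62.3 and 41.5 CPM against controls at 82.7 or more, and mutants of litter 2 at 33.4 CPM or less against controls at 89.1 and 61.2. No member had its mutants above the controls in both litters (1% of genes).

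Cnih3 had a mean of 36.6 ± 14.2 CPM over the 6 mutants and 108 ± 45.2 CPM over the 6 controls (± SD). Its log2 fold change was -1.40 with an SE of 0.292 and an adjusted p of 0.1001 (edgeR). The value did not pass in this fit. It ran from -1.77 to -1.03 over 27 other settings, in 10 of which it passed, with adjusted p from 0.00016 to 0.541. Litter 2 alone gave -1.19 (adjusted p = 0.0224, where 0.574% of genes passed), DESeq2 an adjusted p of 0.00042 (0.89% of genes), and leaving out control 3 (0.0495) or control 4 (0.0371) also brought it past the threshold. Markers of layer 6 corticothalamic neurons were also mostly negative, in 9 of 10, with 1 of them called (Tle4, log2 fold change -0.81, adjusted p = 0.00961) and none at 0. They summed to 4658 to 6434 CPM in mutants and 5922 to 8095 CPM in controls. Nfib was the largest part of this sum, at 2882 to 4375 CPM in mutants and 2947 to 4705 CPM in controls. Tle4, Hs3st4, Zfpm2 and Sla each had all 6 mutants below all 6 controls, a pattern held by 0.927% of genes. The ranges of the other layer 6 markers, Nfib among them, overlapped. Within a genotype the order of libraries differed between markers. Mutant 1, the highest mutant in Cnih3, had the lowest sum, and control 6, the lowest control in Cnih3, had 7420 CPM. Foxp2 was lowest among the controls in control 1 (329 CPM), where Cnih3 was highest. Zfpm2 was highest in controls 1 and 4 (989 and 730 CPM), as was Cnih3. Sla, like Cnih3, was lowest of its genotype in control 6 (49.2 CPM) and mutant 6 (21.4 CPM). The part of layer 6 neurons in the value of Cnih3 was not tested.

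The second cornichon, Cnih2, had a smaller value. It stood at 38.0, 56.5 and 61.3 CPM (lowest, median and highest) in mutants and at 37.6, 48.6 and 76.4 CPM in controls, with the highest level in control 6, the library lowest in Cnih3 among the controls. Its log2 fold change was -0.14 with an SE of 0.176 and an adjusted p of 0.912, and its 95% interval, -0.51 to 0.23, did not reach the value of Cnih3, though the difference between the genes was not itself tested. Cnih3 made up 25.6% ± 10.4 of the CPM per kb of exons of this pair in mutants and 49.7% ± 12.3 in controls. The ranges, 14.8 to 44.9% and 28.5 to 62.8%, overlapped.

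TARPs, the larger group of AMPA receptor partners, had smaller values than Cnih3. Cacng7, a type II TARP, stood at 44.7, 69.3 and 81.8 CPM in mutants and 63.6, 73.4 and 88.8 CPM in controls, for a log2 fold change of -0.32 with an SE of 0.126 and an adjusted p of 0.419. Its mutants lay below the controls in litter 2 (74.8, 62.9, 77.1 and 81.8 against 82.1 and 88.8 CPM), as in 8.83% of genes, and overlapped them in litter 1. Cacng4, the most abundant TARP per kb, had -0.01 (95% interval -0.26 to 0.24) and Cacng8 0.03 (-0.31 to 0.37). Cacng2, the stargazin gene, had 0.12 (SE 0.185) and Cacng3 0.21 (SE 0.210). Cacng5, at 1 to 38 counts per library, had -0.28 with a 95% interval of -1.35 to 0.79, the widest of the TARP genes. Cacng4 took 42.2% ± 2.55 of the TARP CPM per kb of exons in mutants and 40.3% ± 0.899 in controls.

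Shisa9 encodes a partner of AMPA receptors that promotes their desensitisation. It averaged 109.9 ± 24.7 CPM in the mutants and 178 ± 70.0 CPM in the controls, yet the log2 fold change in the fit with litter was -0.29 with an SE of 0.265 and an adjusted p of 0.851. Both litter 2 controls stood with the mutants: controls of litter 1 had 265, 171, 193 and 239.7 CPM, and those of litter 2 had 111 and 86.9, where mutants ran from 84.8 to 155. Shisa9 had -1.26 within litter 1 (SE 0.216, resting on control 1, the 1 female control there) and 0.26 within litter 2 (SE 0.139). The 9 AMPA auxiliary genes together held 478 to 664 CPM in mutants and 571 to 879 CPM in controls, and 6 of the 9 values were negative, with a median of -0.14.

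The AMPA channel subunits overlapped between the genotypes in all 4 genes. Gria2 encodes GluA2, whose edited form keeps AMPA receptors closed to calcium. It had 1004, 1137 and 1216 CPM in mutants and 1088, 1146 and 1199 CPM in controls, and its log2 fold change of 0.01 with an SE of 0.0974 and an adjusted p of 1.000 had a 95% interval of -0.20 to 0.21. Gria1 had 0.06 (-0.28 to 0.40) and Gria3, the X-linked subunit, -0.07 (-0.37 to 0.22).

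Gria4, an AMPA subunit of early development and of fast-spiking interneurons, had the largest value of the 4 channel subunits. Its mutants stood at 254, 366 and 469 CPM and its controls at 257, 329 and 522 CPM, a full overlap, for a log2 fold change of 0.35 with an SE of 0.157 and an adjusted p of 0.544. The unadjusted p was 0.0442. Summed over the 4 genes, AMPA subunits held 2259 CPM in the median mutant and 2350.0 CPM in the median control.

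Within the AMPA family Gria1 took 42.7% ± 3.74 of the CPM per kb of exons in controls and 43.1% ± 4.44 in mutants. Gria2 took 28.5% ± 2.71 in controls and 27.9% ± 3.44 in mutants. The shares of both genotypes were within 1 SD of each other. Per kb of gene span Gria2 held 71.8% of the controls' total in place of 28.5%, so the order of subunits within the family depends on the length used.

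**Figure D3:**
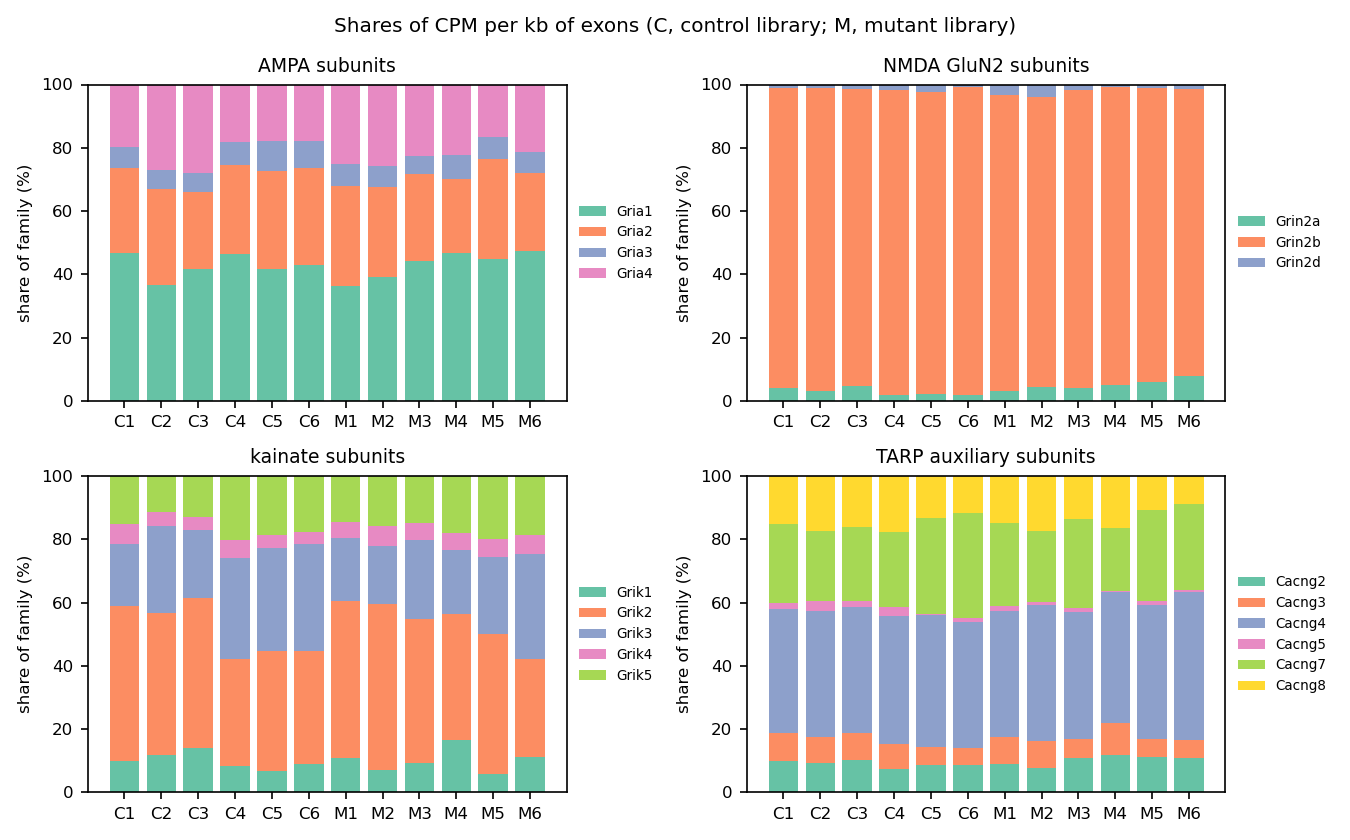
Share of each subunit in the CPM per kb of merged exons of its family, in percent, for the 6 control (C1 to C6) and 6 mutant (M1 to M6) libraries; colours name the genes. Grin2b takes 90.5% or more of the GluN2 genes in each library.

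Grin2b dominated the NMDA family in each library and had the largest difference of means among NMDA subunits. It lies on the minus strand of chromosome 6 (135713233 to 136173511). Mutants stood at 766, 885 and 1359 CPM and controls at 961, 1403 and 1617 CPM, with means of 963 ± 220.0 and 1343 ± 275 CPM. In the fit its log2 fold change was -0.28 with an SE of 0.166 and an adjusted p of 0.705, smaller than the means imply, and the by-litter values are given with the interaction. Only mutant 4, at 1359 CPM, came near the controls of litter 1.

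Grin1, the shared NMDA subunit, stood at 21.8, 28.3 and 62.9 CPM in mutants and 23.0, 31.99 and 39.9 CPM in controls. Mutant 4 was above every control and the other 5 mutants were within or below the controls' range. Its log2 fold change was 0.44 with an SE of 0.203 and an adjusted p of 0.540. Grin2a, whose product replaces GluN2B at many synapses after birth, stood at 19.8, 34.1 and 67.8 CPM in mutants and 14.3, 30.3 and 51.6 CPM in controls, a value of 0.61 (SE 0.541).

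The remaining NMDA subunits were sparse. Grin3a, a glycine-binding subunit that lowers calcium entry, had 0.77 (SE 0.578) and Grin2d, a subunit of early development and interneurons, 0.34 (SE 0.404, 2 to 21 counts per library). Grin2a made up 5.10% ± 1.71 of GluN2 CPM per kb of exons in mutants and 2.99% ± 1.26 in controls, with ranges that overlapped (3.12 to 8.03% and 1.79 to 4.77%). Summed NMDA subunits held 849 to 1533 CPM in mutants and 1032 to 1742 CPM in controls.

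The kainate subunits overlapped between the genotypes in each of the 5 genes. Grik2 stood at 929, 1311 and 1457 CPM in mutants and 857, 1239 and 1558 CPM in controls, for a log2 fold change of 0.23 with an SE of 0.167 and an adjusted p of 0.782. Grik3 had -0.25 (SE 0.174), Grik1 0.34 (SE 0.342) and Grik5 0.12 (SE 0.122). Grik4, which like Grik5 encodes a high-affinity subunit that needs a partner to form a channel, had the smallest unadjusted p of the family.

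Grik4 stood at 62.3, 74.3 and 82.7 CPM in mutants and 42.8, 65.1 and 81.1 CPM in controls, for a log2 fold change of 0.35 with an SE of 0.155 and an adjusted p of 0.504. In litter 2 all 4 mutants (70.9, 73.2, 75.4 and 82.7 CPM) lay above both controls (55.0 and 42.8 CPM), and in litter 1 they did not. This litter 2 pattern was held by 9 of 31 members and 7.44% of genes. The 5 kainate genes summed to 2139 ± 44.7 CPM in mutants and 2133 ± 331 CPM in controls. Within their CPM per kb of exons Grik2 took 30.9 to 52.5% in mutants and 33.8 to 49.0% in controls.

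Neto1 and Neto2 encode the auxiliary subunits that set the speed and binding strength of kainate receptors. Neto2 stood at 218, 239.7 and 345 CPM in mutants and 218, 260.2 and 323 CPM in controls (0.15 with an SE of 0.106 and an adjusted p of 0.771). Neto1 ranged more widely, at 34.7, 68.8 and 146 CPM and 45.7, 89.6 and 166 CPM, for a log2 fold change of 0.26 with an SE of 0.308 and an adjusted p of 0.905.

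Grid1 encodes the delta receptor GluD1, which binds cerebellins across the synapse and is not opened by glutamate in the usual way. It lies on the plus strand of chromosome 14 (34820108 to 35583379). Mutants stood at 226, 295 and 361 CPM and controls at 159, 215 and 418 CPM, the controls with both the lowest and the highest library. Its log2 fold change was 0.55 with an SE of 0.291 and an adjusted p of 0.661. In litter 2 alone Grid1 passed (0.85, edgeR adjusted p = 0.0237), where 0.574% of genes passed. There mutants had 286, 361, 233 and 339 CPM and controls 199.6 and 159 CPM. Over 27 alternatives its adjusted p ran from 0.0237 to 0.978.

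The metabotropic receptors varied widely between libraries. Grm3, a group II receptor found on neurons and glia, stood at 13.7, 40.5 and 83.6 CPM in mutants and 22.6, 121 and 199 CPM in controls, and its log2 fold change was -0.32 with an SE of 0.464. Grm5, the group I receptor that couples to phospholipase C, had 0.19 (SE 0.345). The group III receptors Grm7, Grm8 and Grm4, which damp transmitter release from axon terminals, had 0.40 (SE 0.391), 0.81 (SE 0.395) and 1.07 (SE 0.683).

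Grm8 was the closest of these to the threshold, at an adjusted p of 0.611, with mutants at 21.4, 42.5 and 62.9 CPM and controls at 19.7, 28.5 and 77.2 CPM. The mutants lay inside the controls' range. Of the metabotropic CPM per kb of exons, Grm3 took 12.5 to 25.1% in mutants and 15.4 to 55.2% in controls, and Grm5 34.7% ± 2.02 and 32.5% ± 6.37. Biological variation left between libraries after genotype, litter and sex (the coefficient estimated by edgeR) had a median of 0.172 for the members. Its median was 0.126 for all genes tested. The 5 metabotropic genes tested ran from 0.269 (Grm5) to 0.466 (Grm4), against 0.0931 for Cacng7.

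**Figure D4:**
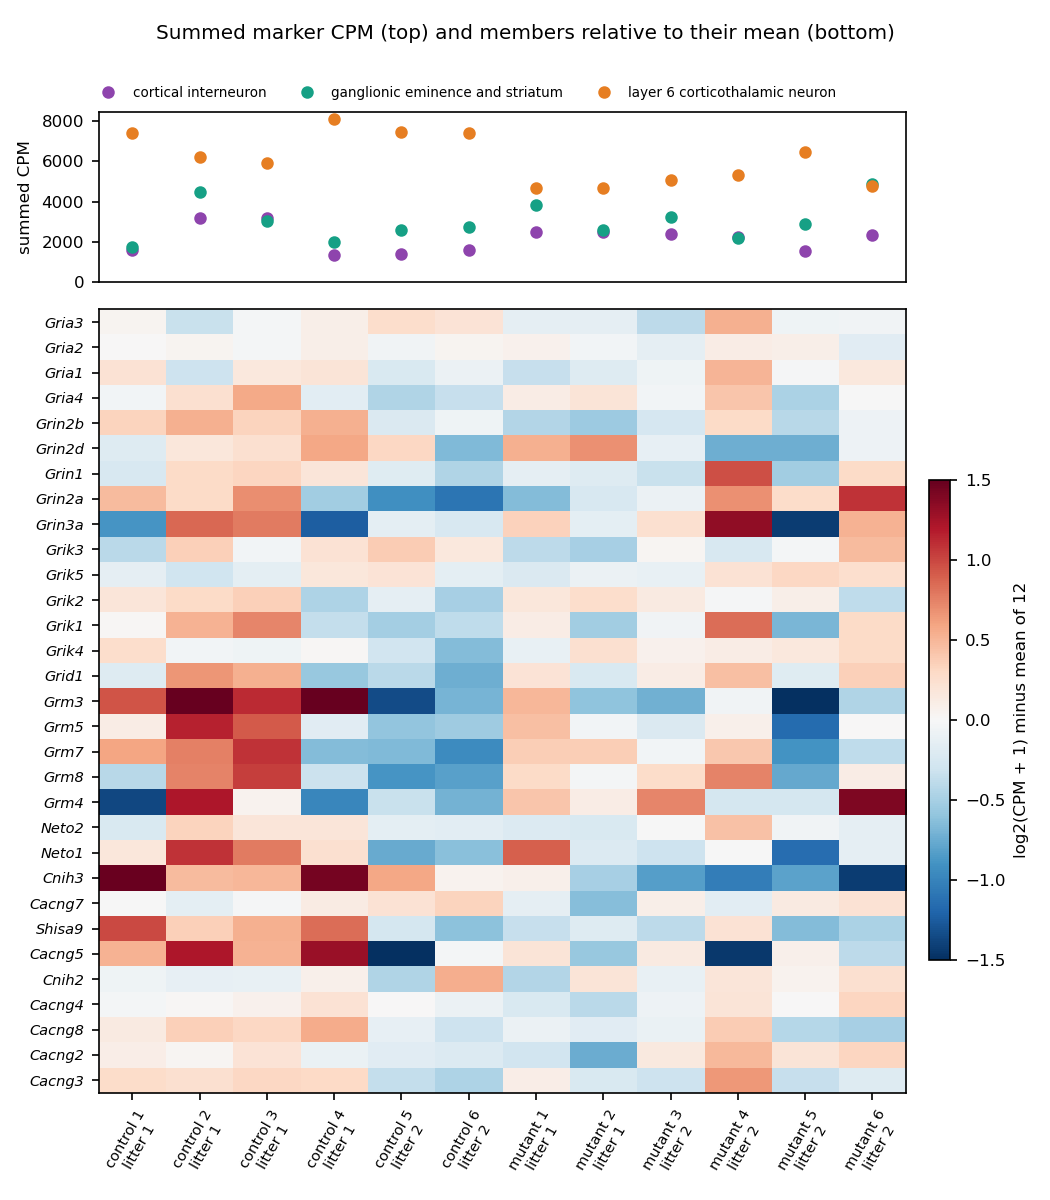
Top, summed CPM of the marker lists of cortical interneurons, ganglionic eminence and striatum, and layer 6 neurons in each library. Bottom, log2(CPM + 1) of each tested member minus its mean over the 12 libraries, from blue (lower) to red (higher), with the scale ending at 1.5. Grm5 and Grm7 are highest in controls 2 and 3, and Grm4 in mutant 6.

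The members with the largest variation, Grm4, Grin3a and Grin2a, were highest in mutant 6, mutant 4 and mutant 6. Controls 2 and 3, both males of litter 1, were the highest controls in 8 and 9 of 31 members, where they were the highest controls in 22.9% and 11.7% of all genes, so the count for control 2 was near its background. Values of 4 members follow, chosen after they were seen to be high in both libraries. Grm5 had 647 and 551 CPM in these libraries and 313, 257, 191 and 199.7 CPM in the other controls. Grid1 had 418 and 383 CPM against 231, 178, 199.6 and 159, and Grm8 62.9 and 77.2 CPM against 27.6, 29.5, 19.7 and 20.7. Grik1 had 202 and 235 against 143, 110.2, 98.3 and 108 CPM.

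The summed CPM of interneuron markers was also highest in these libraries, and most of it was Erbb4, a receptor of neuregulins. The 16 markers, none of them at 0 in all libraries, summed to 3194 and 3177 CPM in controls 2 and 3, to 1339 to 1612 CPM in the other controls and to 1539 to 2502 CPM in mutants. Erbb4 alone had 2379.6 and 2405 CPM in controls 2 and 3. A score that weights the 15 tested markers equally (the mean of their standardised log2 CPM) ordered the libraries differently, with 0.915 in mutant 1, 0.754 in control 3, 0.664 in mutant 6, 0.487 in mutant 3 and 0.324 in control 2. The 14 ganglionic eminence and striatum markers, none at 0 in all libraries, were also highest in controls 2 and 3 among the controls. They summed to 4489 and 3031 CPM there and to 1753 to 2738 CPM in the other controls. In mutants they summed to 2210.2 to 4872 CPM, highest in mutant 6, which with control 2 was also the highest of its genotype in Grm4. Although these sums overlapped, the log2 fold change of mutant against control was positive in all 15 interneuron markers tested (median 0.42) and in all 9 striatum markers tested (median 1.11), and negative in 10 of 11 projection neuron markers (median -0.17), with 0 of them past the test. With that interneuron score as a further term in the fit, no member passed. Grid1 had 0.24 in place of 0.55, Grm8 0.32 in place of 0.81 and Cnih3 -1.03 (edgeR adjusted p = 0.0812) in place of -1.40. Grik1 had 0.005 in place of 0.34, Grin3a 0.07 in place of 0.77 and Grm4 0.35 in place of 1.07. Values also moved away from 0, as in Grik4 (0.44 in place of 0.35) and Grik5 (0.26 in place of 0.12). The part of these cells in the members' levels was not tested further.

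Among the mutants, mutant 4, the 1 male and the second shallowest library, was the highest in 16 of 31 members, against 20.3% of all genes. These included Gria1 at 948 CPM, Grin1 at 62.9 CPM and Grin2b at 1359 CPM, where the next mutants had 745, 39.0 and 1059 CPM, each in mutant 6. Among the controls the 2 of litter 2 were the lowest, control 5 in 10 and control 6 in 13 of 31 members (16.9% and 19.2% of genes). All 32 members summed to 8664 CPM in mutant 4 and at most 7322 CPM in another mutant, and to 6683 and 6465 CPM in controls 5 and 6 against at least 8013 CPM in the litter 1 controls.

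Litter 2 was compared with litter 1 in the same fit, since the litters hold unequal numbers of each genotype. No member passed (0 of 31), where 0.618% of all genes were called lower, 0.693% higher and 1.31% in either direction. At an unadjusted p under 0.05 stood 13 of 31 members, against 15.4% of genes. Values were negative, lower in litter 2, in 22 of 31 members and in 50.9% of genes, with a median of -0.25 in the members and -0.01 over all genes. The ranges of the litters overlapped in all 31 members, while they did not overlap in 1.66% of genes.

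Neto1 and Grm3 came nearest to the threshold. Neto1 had 87.4, 166, 134 and 91.9 CPM in the litter 1 controls, 146 and 67.0 CPM in the litter 1 mutants, 45.7 and 50.1 CPM in the litter 2 controls and 62.6, 77.1, 34.7 and 70.6 CPM in the litter 2 mutants. Litter 2 was lower in both genotypes, apart from mutant 2, which stood among the litter 2 mutants. The log2 difference of Neto1 was -1.04 (SE 0.271, edgeR adjusted p = 0.103), and it passed in 4 of 19 alternatives (adjusted p from 0.00228 in DESeq2 to 0.328), among them the fit without mutant 2 (0.0396).

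Grm3 had 114, 199, 129 and 182 CPM in the litter 1 controls and 22.6 and 35.9 CPM in the litter 2 controls, a gap with no overlap, while mutants had 83.6 and 38.3 CPM in litter 1 and 35.2, 56.5, 13.7 and 42.7 CPM in litter 2. Its log2 difference was -1.62 (SE 0.422, adjusted p = 0.118 by edgeR and 0.0145 by DESeq2). Grm7 had -0.99 (SE 0.353) and passed without control 4 (adjusted p = 0.0383, where all libraries gave 0.229 and the alternatives 0.0194 to 0.495). Grm5 had -0.82 (SE 0.308) and Cnih3 -0.75 (SE 0.257). Cacng7 had the positive value nearest to the threshold, 0.36 (SE 0.111, adjusted p = 0.122).

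The mutant effect was then compared between the litters by an interaction term. Both litter 1 mutants were female and 3 of the 4 litter 1 controls were male, so this fit takes the sex difference from both litters together. No member passed (0 of 31), and neither did any of the 10678 genes (0%), with 8 of 31 members and 7.27% of genes at an unadjusted p under 0.05. The term was negative in 4 of 31 members and in 50.7% of genes, with a median of 0.44 in the members and -0.01 over all genes, so most members had a more positive mutant value in litter 2. In litter 1 both mutants lay below all 4 controls in 9 of 31 members and 12.8% of genes, and above them in 0 members and 14% of genes. In litter 2 the 4 mutants lay above both controls in 9 of 31 members and 7.44% of genes, and below them in 2 members and 8.83% of genes. The litter 1 mutants were also among the 3 shallowest libraries. Relative to each gene's mean over the 12 libraries, their log2 CPM fell by 0.239 and 0.238 from the 10th to 90th percentile of gene span. In litter 1 controls it rose by 0.00808 to 0.197, and in control 6 it fell by 0.180. With this trend removed no member passed. Of the channel subunits at an unadjusted p under 0.05, Gria1 then had 0.45 in place of 0.62 and Grin2a 2.05 in place of 2.26. Grin2b had 0.65 in place of 0.84 and Grik4 0.42 in place of 0.61. The parts of depth and span in this term were not tested further.

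**Figure D5:**
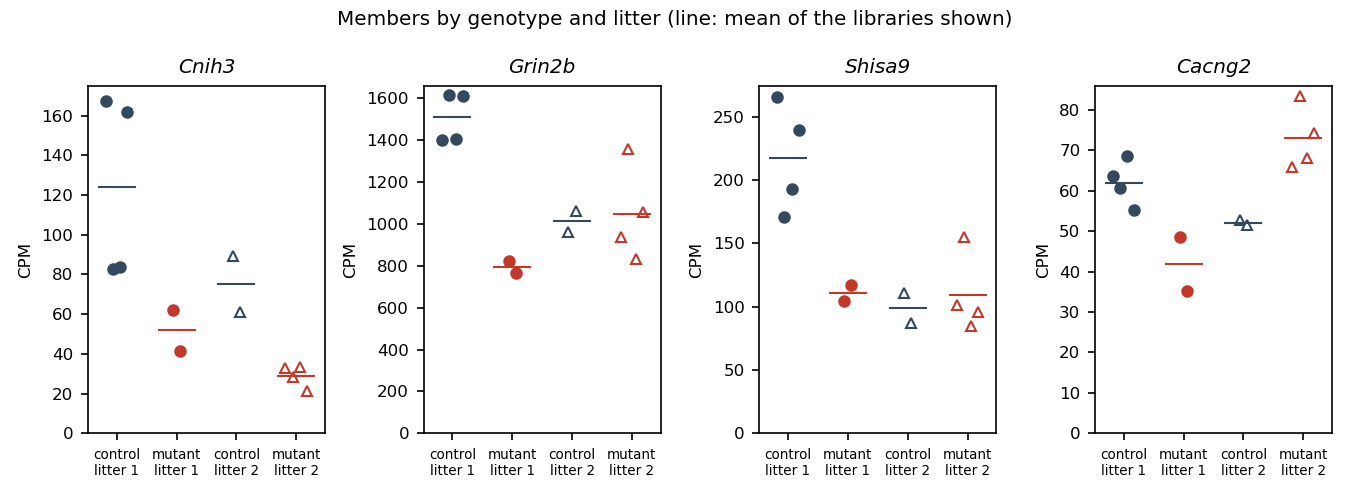
CPM of Cnih3, Grin2b, Shisa9 and Cacng2 in each library by genotype and litter, on linear axes from 0, with a line at the mean of the libraries shown. Mutants lie below controls in both litters for Cnih3, and in litter 1 alone for the other 3.

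Cacng2, the stargazin gene on chromosome 15 (77991748 to 78120028, minus strand), had the smallest interaction p of the members. In litter 1 mutants had 48.6 and 35.1 CPM and controls 63.5, 60.8, 68.6 and 55.3 CPM. In litter 2 the order was turned, with mutants at 65.9, 83.5, 68.1 and 74.3 CPM and controls at 52.6 and 51.5 CPM. The groups did not overlap in either litter, and Cacng3 was the other member with this pattern. Over all genes, mutants lay below controls in litter 1 in 12.8% and above them in litter 2 in 7.44%. The share of genes with both was not counted. The interaction was 1.02 (SE 0.249, edgeR adjusted p = 0.453), which did not pass. An antisense gene, A730060N03Rik, shares 323 bases of exon with Cacng2.

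Grin2b and Shisa9 had mutants below controls in litter 1, as in 12.8% of genes, and overlapped in litter 2. Grin2b in litter 1 stood at 822 and 766 CPM in mutants and 1403, 1617, 1403 and 1613 CPM in controls, a full gap. In litter 2 its mutants had 938, 1359, 833 and 1059 CPM and its controls 961 and 1063 CPM, which overlapped. The interaction was 0.84 for Grin2b (SE 0.223, edgeR adjusted p = 0.504), 1.02 for Shisa9 (SE 0.355, adjusted p = 0.579) and 2.26 for Grin2a (SE 0.664, adjusted p = 0.529). For Cnih3 it was 0.04 (SE 0.587), with a mutant value of -1.73 within litter 1 and -1.19 within litter 2. The litter 1 value rests on control 1, the 1 female control there and the highest of the controls in Cnih3.

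Other genes of glutamate synapses were taken from lists named for their roles. Of 22 auxiliary and biogenesis factors tested, 0 passed (0.215% of all genes did), the nearest being Nptx1, a secreted pentraxin that gathers AMPA receptors (-1.07 with an SE of 0.298 and an adjusted p of 0.190). Of 32 postsynaptic scaffolds and kinases, 0 passed, the nearest being Tnik, a kinase of the postsynaptic density (-0.43 with an SE of 0.137 and an adjusted p of 0.275), and of 13 glutamate transport and metabolism genes, 0 passed, with the vesicular transporter Slc17a6 nearest (-0.32 with an SE of 0.127 and an adjusted p of 0.422).

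Synaptic adhesion partners held the 1 call, in 30 genes tested, where 0.215% of all genes were called in either direction. Lrrtm4, a postsynaptic protein that holds AMPA receptors at synapses through partners on the axon, fell to 279 ± 48.4 CPM in mutants from 671 ± 172 CPM in controls (-0.97 with an SE of 0.146 and an adjusted p of 0.00961), and 24 of 27 alternatives called it. Nlgn1, a neuroligin of excitatory synapses, had 1379 ± 221 and 2514 ± 588 CPM (-0.69 with an SE of 0.150 and an adjusted p of 0.0640). All 6 mutants lay below all 6 controls in Nlgn1 as in Lrrtm4, a pattern held by 0.927% of genes. Homer1, of the scaffold list, also held it, at 149 ± 9.34 and 196 ± 23.9 CPM (-0.25, edgeR adjusted p = 0.362). The medians of these 4 lists lay between -0.12 and 0.03, and 0 of their genes were called higher.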

How the data were processed

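Per the labels' protocols, total RNA was depleted of ribosomal RNA and made into ClickSeq libraries, in which azido-nucleotides end the cDNA and a tagged adaptor is clicked on. The build was mm10 and the tools were STAR 2.5.2a, HTSeq 0.6.1p1, UMI-tools 0.5.3, cutadapt 1.13, edgeR 3.20.9 and bcl2fastq 2.17, per the submitters' processing notes. Not given in the sources used here are the counting mode, strand setting and annotation release. Deposited files hold the authors' raw counts per Ensembl gene, whole numbers with no normalization, and 5 closing entries that name no gene (20.7 to 31.6% of a file), left out of all totals.

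Symbols, lengths and coordinates came from GENCODE M21 (GRCm38): 47734 identifiers matched with version, 3985 without and 193 not at all. Genes kept by filterByExpr (genotype as group, minimum count 10) were scaled by TMM. The model of genotype, litter and sex ran in R 4.3.3 with edgeR 4.0.16, using 8 residual degrees of freedom, glmQLFit with robust = TRUE and glmQLFTest, and p-values were adjusted by Benjamini-Hochberg over 10678 genes. SE is the log2 fold change divided by the square root of F. DESeq2 1.42.0, limma-voom (limma 3.58.1) and further settings were run as alternatives. The fit was tested on simulated data. Tables used Python 3.11.15 and pandas 2.3.3, and plots matplotlib 3.10.9. The members, gene lists and tests were chosen with earlier results of these data known. All 32 members are named; of each list, called genes and otherwise up to 3 with the lowest p could be named, and Arid1a as the targeted gene. Some listed genes are not reported here.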

Additional observations from a re-analysis of the deposited data

Results flagged for a closer look

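In 4 of 64 sets of 6 libraries (32 members in each genotype), the highest library stood apart from the other 5 by more than Dixon's 95% limit. Chance puts a library beyond this limit, at either the high or the low end, in about 1 of 20 independent sets. The sets here share their libraries, so they are not independent. Mutant 4 was the library that stood apart in 3 of the 4 sets. It had 258 CPM of Gria3, an X-linked AMPA subunit, where the next mutant had 171, it had 345 CPM of the kainate partner Neto2, where the next had 255, and it had 36.0 CPM of the TARP gene Cacng3, where the next had 24.3. Mutant 4 was the 1 male mutant and held 794716 counts. Control 2 had 37.4 CPM of the metabotropic receptor gene Grm4, where the next control had 16.2, and Grm4 reached 42.7 CPM in mutant 6.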

How the results depend on the processing

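The count of members that passed mutant against control, 0, became 1 with no filter on low counts, no sex term, neither term, females alone, counts thinned to equal depth, the striatum score as a covariate and DESeq2, in each case Cnih3, and 2 in litter 2 alone (Cnih3 and Grid1). Leaving out 1 library gave 0 to 1. The 23 genes called in all became 261 with no filter, 141 with neither term, 95 in DESeq2, 77 with no sex term, 64 in litter 2 alone, 44 in females alone, 35 with the striatum score, 11 with the interneuron score (added after seeing the data), 5 in litter 1 alone and 0 without mutants 1 and 4, and ran from 6 to 55 when 1 library was left out. With no filter the fit held 24283 genes.

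For litter 2 against litter 1 the members called, 0, became 4 with no filter (Gria4, Grik2, Grik3 and Cnih3), 4 in DESeq2 (Grm3, Grm5, Grm7 and Neto1), 2 with the striatum score and 2 with the interneuron score (Cnih3 and Neto1 in both), and 0 to 1 without 1 library (Neto1 without mutant 2, Grm7 without control 4). The 140 genes called became 593 with no filter, 307 with the striatum score and 264 in DESeq2, and 27 to 212 without 1 library. For the interaction, 0 members became 5 with no filter (Cacng2, Gria1, Grin2a, Grin2b and Shisa9), and 0 genes became 75 with no filter, 6 in DESeq2, 2 with the striatum score, 1 with the interneuron score and 0 to 1 without 1 library. The cause of these moves was not tested.

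Signs turned in 12 of 432 values of the 16 members whose log2 fold change was larger than its SE. Litter 1 alone gave -0.91 for Grin2a, -0.18 for Grik4 and -0.24 for Grm7, each resting on control 1, the 1 female control of that litter. Litter 2 alone gave 0.093 for Grin2b and 0.26 for Shisa9. Grm7 had -0.044 with no litter term and -0.23 with neither term, and Neto2 had -0.0521 with no sex term and -0.057 with neither. Grik3 had 0.013 without mutants 1 and 4 and ran from -0.39 to 0.00667 without 1 library (positive without mutant 4), and Shisa9 ran from -0.56 to 0.10 without 1 library (positive without control 1). All 15 members within 1 SE of 0 changed sign in some setting. Levels of the 32 members did not move beyond 1 SD with plain totals, and ranks per kb moved by at most 9 with coding length and 5 with the longest transcript. No paired analysis was possible because the labels tie no mutant to a control. Depth limits Grm2, Cacng5 and Grin2d most, at 121, 156 and 114 counts over 12 libraries.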
